A study of Mus musculus with 12 samples.

Results

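Hematopoietic stem cells of mice that lack thrombopoietin and had been given its receptor agonist were compared with stem cells of untreated wild-type mice. The comparison asks which genes reach, miss or pass the wild-type level once the agonist has been given. It uses 6 of the 12 libraries of the series, namely 3 of treated knockout and 3 of untreated wild type. Of 35275 genes in the deposited table, 11943 reached 1 FPKM in 3 or more of these 6 libraries and were tested. The other 23332 were not tested, among them 10725 listed at 0 in all 6. FPKM, the unit of the table, divides the fragments of a gene by its length in kilobases and by the sequencing depth. Judged by the third-highest of the 6 values, the nearest named protein-coding genes to this limit were Usp50 and Nckap5l just inside, at 1.0001 and 1.0003 FPKM, and Rnd1 and Ddx25 just outside, at 0.9996 and 0.9993 FPKM.

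All mice were of the C57BL/6 strain, and their age is not in the labels. The wild-type group was Thpo+/+ and its treatment is labelled untreated, while the protocol names PBS for the controls. The knockout was deficient in Thpo and received daily intravenous Romiplostim, 100 µg/kg, over 10 days. The groups therefore differ in genotype and in treatment together, and the separate effects of these cannot be told apart in this comparison. Untreated knockout libraries, also 3, are given beside the values to show where a gene started. The labels do not say that the 3 libraries of a group come from separate animals, so p-values may in part measure technical spread. In wild type the sex marks given below set replicate 2 apart from the others, so the group is not all from the same animal. For treated knockout these marks do not settle the point. Each group was sequenced in a run of its own, and run and group cannot be told apart.

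Thrombopoietin is made mainly in the liver and binds a receptor on megakaryocytes and on stem cells. The receptor signals through the kinase Jak2 to STAT5, to the MAP kinases and to PI3 kinase. In the bone marrow this signal raises platelet production and helps to keep stem cells in number and in quiescence. Romiplostim is a fusion protein that carries receptor-binding peptides and activates the same receptor. Targets of STAT5 include feedback inhibitors of the pathway, so their RNA is often read as a sign of recent signalling.

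The 6 libraries held 27.7 to 35.6 M fragments, as recovered from the steps between low FPKM values, and 11262 to 11986 genes reached 1 FPKM. Thpo itself was listed at 0 in 5 of them and at 0.0208 FPKM in wild-type replicate 3, where 3 fragments correspond to 0.0392 FPKM, so it checks no label. The mean of 4 Y-linked genes was 0.00537 to 0.0389 FPKM in the 3 treated knockout libraries, 22.5, 0.137 and 23.2 FPKM in the wild-type libraries and 11.3 to 24.9 FPKM in untreated knockout. Xist, the RNA of the inactive X chromosome of female cells, was at 22.6, 20.1 and 41.3 FPKM in treated knockout, 0.0818, 40.2 and 0.203 FPKM in wild type and 4.91, 0.0398 and 8.7 FPKM in untreated knockout. Y-linked genes and Xist mark the sex of the mice, which the labels do not give, and by both the treated knockout stands apart from wild-type replicates 1 and 3 but not from replicate 2. Sex and group therefore overlap in part. The Y-linked term used below marks each library as above or below 1 FPKM in the mean of the 4 Y-linked genes. It does not mark that untreated knockout replicates 1 and 3 held both Y-linked RNA and Xist, the latter at 4.91 and 8.7 FPKM. Each treated knockout library also had a higher mean level of erythroid, B cell, and T and NK cell markers than any wild-type library. The stem cell marker Procr was detected in all 6 libraries, at 50.5 to 151 FPKM. In bulk RNA, fewer cells of a type and less RNA per cell cannot be told apart.

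Most genes of treated knockout lay within 2-fold of untreated wild type, and among those that passed the test more were lower than higher. Of the 11943 genes, 1520 (12.7%) passed the test, with 403 (3.37%) higher and 1117 (9.35%) lower in treated knockout. Among them 198 were at least 2-fold higher and 305 at least 2-fold lower. The 95% confidence interval of the difference lay within 2-fold for 9528 genes (79.8%), of which 9159 did not pass the test. For 1264 genes neither held, so that they cannot be placed. Values of the groups did not overlap for 3178 genes (26.6%). The test was limma on log2(FPKM + 1), fitted to all 12 libraries, two-sided, with Benjamini-Hochberg adjustment and an adjusted p under 0.05.

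These totals depend on the libraries and on the scaling. With a term for the Y-linked level, 305 genes passed, 78 higher and 227 lower. The comparison with wild-type replicate 2 alone, the library with low Y-linked genes, leaves 1 wild-type library and so a wider error. A lower count in that setting does not show that differences are gone. Leaving out 1 library at a time gave 827 without treated knockout replicate 1, 2975 without replicate 2 and 1047 without replicate 3. It gave 959, 853 and 910 without wild-type replicates 1, 2 and 3. Higher genes made up 26.5% of those that passed, but 46.3% with median-of-ratios scaling and 41.2% with quantile normalization. The median log2 difference of all tested genes was −0.12, and it was 0.01 and −0.01 under those scalings.

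The untreated knockout sets the starting side of each gene. A gene started below wild type when its untreated knockout mean was at least 2-fold lower and the 3 libraries of each group did not overlap, which held for 962 genes (8.05%). By the mirrored rule 813 genes (6.81%) started above. Of the 962 genes that started below, treated knockout stayed short of wild type for 502, had an interval within 2-fold of it for 256, passed it for 6 and was undecided for 198. Of the 813 that started above, 260 stayed above wild type, 290 were within 2-fold, 3 went past and 260 were undecided. The starting side and the comparison share the wild-type libraries, so these counts are a description. The remaining 10168 genes met neither rule. They include genes that differed by more than 2-fold but with overlapping libraries, such as Jchain at a log2 difference of 3.94. Of these 10168 genes, 137 were higher and 612 lower in treated knockout, with 28 and 75 of them at least 2-fold.

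**Figure D1:**
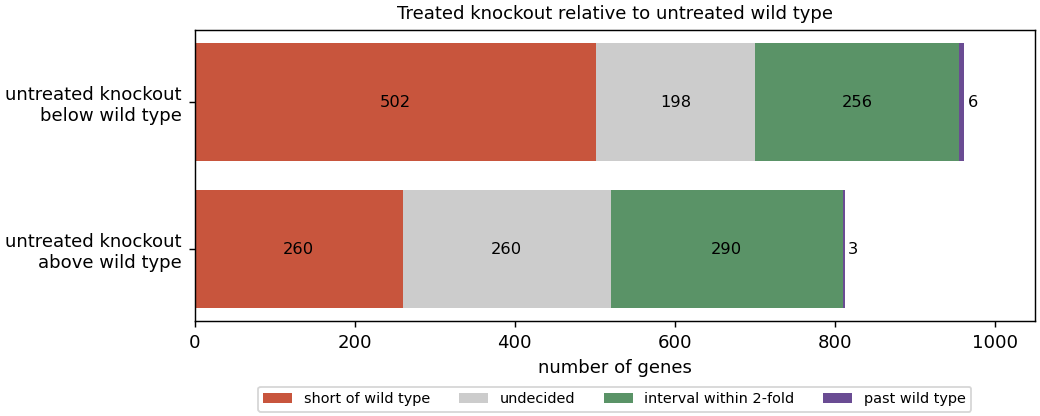
Number of genes (x axis) in each class of treated knockout relative to untreated wild type, for genes whose untreated knockout mean lay at least 2-fold below or above wild type without overlap. Of 962 genes that started below, 502 were short of wild type and 256 within 2-fold, and of 813 that started above, 260 were short and 290 within 2-fold.

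Stem cell genes lay on the low side of wild type. Of 33 tested members of a stem cell marker list of 35, 10 were lower and 1 higher, beside 9.35% and 3.37% of all tested genes. The other 22 did not pass. The median log2 difference was −0.65, beside −0.12 for all tested genes, and 30 of 33 members were negative. In untreated knockout the median of the same list was −1.39. By library the mean list level on the log2(FPKM + 1) scale was 4.66, 5.49 and 5.26 in treated knockout and 5.59, 5.92 and 5.81 in wild type. All 3 treated knockout libraries lay below the lowest wild-type library, with replicate 1 lowest. That replicate also had the highest erythroid marker level of the treated libraries, and the part of other cells in the stem cell values was not tested. The number of lower members was 2 with the Y-linked term, 1 against wild-type replicate 2, and 3 to 18 when 1 library was left out, with 18 without treated replicate 2, 4 without treated replicate 1 and 3 without wild-type replicate 2 or 3.

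Slamf1, which encodes the SLAM receptor CD150 used to sort stem cells, was at 16.9, 36.6 and 28.8 FPKM in treated knockout and 26.3, 27.7 and 23.3 FPKM in wild type. Its untreated knockout values were 8.79, 5.51 and 12 FPKM. Treated knockout spanned the wild-type values, and the log2 difference was 0.03 ± 0.27 (SE; 95% confidence interval −0.55 to 0.60; limma adjusted p = 0.957). Mllt3, a chromatin reader that maintains stem cells, also had an interval within 2-fold, at −0.40 (−0.80 to −0.0004), from 58.8 ± 11.6 against 77.7 ± 14 FPKM (SD, n = 3).

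Ifitm1, an interferon-induced membrane protein gene, was at 2139, 3054 and 3954 FPKM in treated knockout, 4964, 3797 and 4651 in wild type and 191, 210.0 and 194 in untreated knockout. Treated replicate 3 lay inside the wild-type range and the other two below it. The log2 difference from wild type was −0.59 ± 0.23 (limma adjusted p = 0.118), and the interval of −1.10 to −0.08 leaves the gene undecided. Procr, the endothelial protein C receptor gene and another sorting marker, was at 50.5, 122 and 82.2 FPKM in treated knockout and 130.2, 141 and 151 FPKM in wild type. Its groups did not overlap, but the difference of −0.81 ± 0.25 missed the threshold (limma adjusted p = 0.0538).

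Hlf, a transcription factor gene of stem cells, was at 26.1, 52.4 and 57.3 FPKM in treated knockout and 61.4, 105 and 87.8 FPKM in wild type. It was lower, with a log2 difference of −0.93 ± 0.28 (limma adjusted p = 0.0468), and 10 of 18 alternatives lost this call. Other lower members included the co-stimulatory receptor gene Cd27 (−1.12), the membrane adaptor gene Pdzk1ip1 (−1.02) and the homeobox gene Meis1 (−1.10). The sole higher member was Gfi1 (1.02), a repressor that restrains stem cell division. The plot of values by library shows Ifitm1, Procr, Hlf and Slamf1 side by side.

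**Figure D2:**
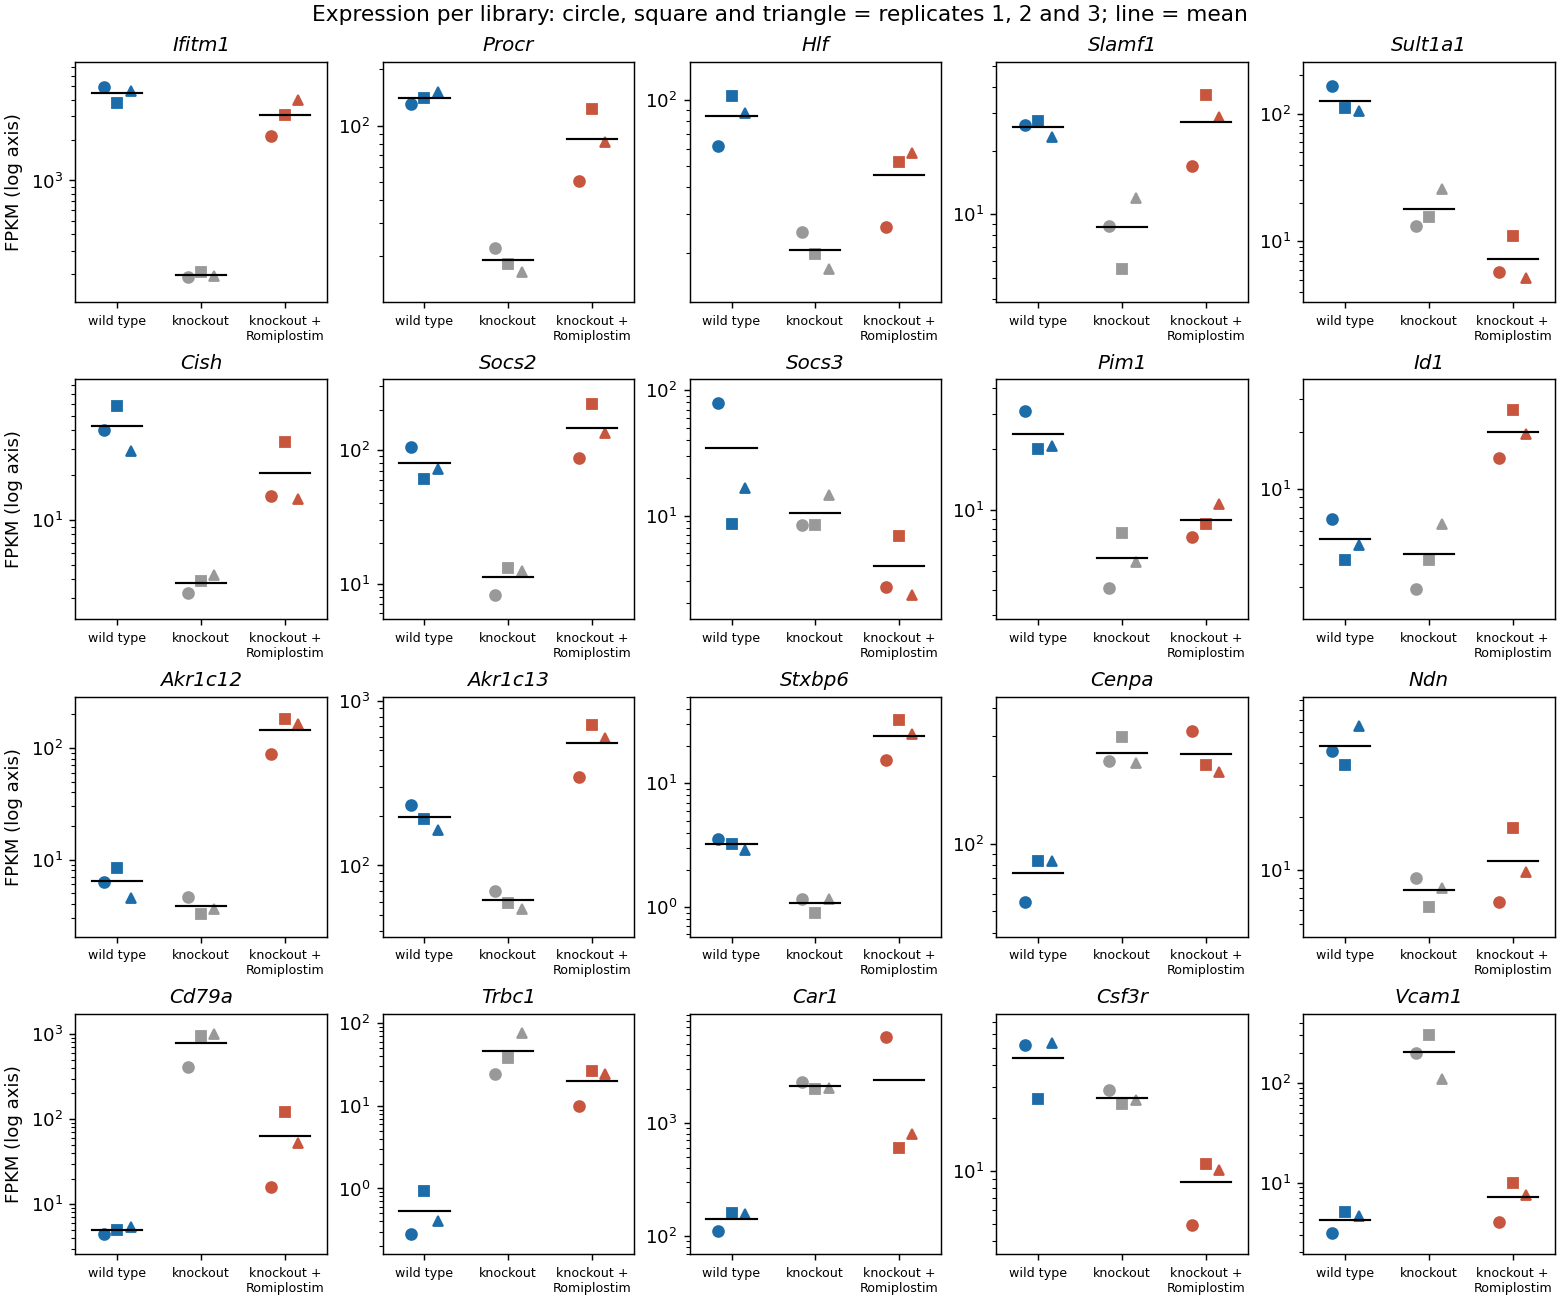
FPKM on a log axis for 20 genes in untreated wild type, untreated knockout and treated knockout, with circle, square and triangle for replicates 1, 2 and 3 and a line at the mean. Slamf1 in treated knockout spans the wild-type values, Sult1a1 lies below both other groups, and Akr1c12 at 88.0 to 181 FPKM lies above both.

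Of 26 thrombopoietin signalling genes, all tested, 3 were lower, 0 were higher and 23 had an interval within 2-fold, with a median of −0.09. Lower members were thus about as frequent as among all tested genes (9.35%). They numbered 7 without treated replicate 2 and 1 with the Y-linked term. The highest log2 difference of the list was 0.20. Stat3, a transcription factor activated by many cytokines, was lower (−0.72 ± 0.17), as was Pik3r1, a regulatory subunit gene of PI3 kinase (−0.76 ± 0.18; limma adjusted p = 0.017 and 0.0172). Jak2 (−0.04), Stat5a (−0.17) and Stat5b (0.16) did not pass.

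Targets of STAT5 took different positions. Of 21 tested, 5 were lower and 2 higher, beside 9.35% and 3.37% of all tested genes, with a median of −0.51. Id1, an inhibitor of basic helix-loop-helix factors (ENSMUSG00000042745, chromosome 2, 152736251 to 152737410), was at 14.5, 26.3 and 19.6 FPKM in treated knockout, 6.92, 4.21 and 5.02 FPKM in wild type and 2.94, 4.16 and 6.5 FPKM in untreated knockout. Each treated knockout library lay above all libraries of both other groups, and the gene was higher than wild type by 1.71 ± 0.27 (limma adjusted p = 0.00265), a call kept in all 18 alternatives. Gfi1 was the other higher member and also counts among the stem cell and quiescence genes.

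Cish, Socs2 and Socs3 encode feedback inhibitors of cytokine receptors. Cish was at 14.4, 33.4 and 13.7 FPKM in treated knockout, 39.9, 58.3 and 28.9 FPKM in wild type and 3.22, 3.86 and 4.24 FPKM in untreated knockout. It lay short of wild type (−1.07 ± 0.31, limma adjusted p = 0.0442), with treated replicate 2 inside the wild-type range, and the call was lost under 9 of 18 alternatives. Socs2 was at 86.5, 219.6 and 133 FPKM in treated knockout and 106, 60.2 and 72.5 FPKM in wild type, from 8.29, 13.1 and 12.4 FPKM in untreated knockout. Its difference of 0.81 ± 0.30 did not pass (limma adjusted p = 0.0946), and the interval of 0.16 to 1.46 reaches beyond 2-fold upward.

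Socs3 was at 8.44, 8.43 and 14.5 FPKM in untreated knockout against 78.8, 8.57 and 16.5 FPKM in wild type. The log2 difference of these groups was −1.09, but they overlapped, so the gene met neither starting rule. In treated knockout Socs3 was at 2.67, 6.87 and 2.3 FPKM. Wild-type replicate 1 stood apart with the highest value. The difference of treated knockout from wild type, −2.38 ± 0.60 (limma adjusted p = 0.0232), was lost under 6 of 18 alternatives. Pim1, a survival kinase gene, was at 7.37, 8.5 and 10.7 FPKM in treated knockout and 30.9, 20.1 and 20.7 FPKM in wild type (−1.32 ± 0.24, limma adjusted p = 0.00525). The cyclin gene Ccnd2 was lower (−0.64 ± 0.16, limma adjusted p = 0.0204). Lower members of the STAT5 target list numbered 10 without treated replicate 2, 2 or 3 without any other library but wild-type replicate 3, and 0 with the Y-linked term or against wild-type replicate 2.

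A Socs3 window is shown because it holds a match to TTCNNNGAA, the form of site that STAT5 binds and one that reads the same on both strands. The letters are from RefSeq (chr11:117969452-117969616, minus strand, GRCm38.p6), 5′ to 3′, and end where an annotated exon begins, with the match in capitals. The match starts 154 bases before the start that the RefSeq promoter table gives, base 117969366. That start lies 681 bases inside the GENCODE span of the gene (117966079 to 117970047), so the window is within the gene and downstream of its annotated 5′ end.
Socs3: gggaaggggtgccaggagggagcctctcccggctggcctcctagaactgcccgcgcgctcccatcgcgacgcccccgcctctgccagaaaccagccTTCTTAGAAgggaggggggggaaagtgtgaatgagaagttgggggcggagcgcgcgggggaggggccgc
Of 32851 windows of 250 bases before a start in the same table, 2306 (7.02%) hold such a match, so the match alone is a description.

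Genes of the Akr1c family of aldo-keto reductases, which reduce steroids and other carbonyl compounds, went beyond wild type. Akr1c12 (ENSMUSG00000021211, chromosome 13, 4268176 to 4279433) was at 88, 181 and 164 FPKM in treated knockout, 6.35, 8.48 and 4.51 FPKM in wild type and 4.62, 3.25 and 3.64 FPKM in untreated knockout. The lowest treated library was above the highest of the other groups, and the gene was 19.1-fold higher than wild type on the log2(FPKM + 1) scale (4.25 ± 0.26, limma adjusted p = 1.17e-05). This call was kept in all 18 alternatives.

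Akr1c13 (ENSMUSG00000021213, chromosome 13, 4191150 to 4205596) started below wild type, at 70.1, 59.2 and 54.7 FPKM against 233, 191 and 164 FPKM, and was at 344, 715 and 593 FPKM in treated knockout. It was past wild type by 1.44 ± 0.23 (limma adjusted p = 0.00269), a call lost in 1 alternative, against wild-type replicate 2 alone. Akr1c19 (ENSMUSG00000071551, chromosome 13, 4228700 to 4252843) went from 0.119, 0.0559 and 1.16 FPKM in untreated knockout past the wild-type values of 3.78, 3.19 and 3.36 FPKM to 11, 16 and 14.6 FPKM, a difference from wild type of 1.73 ± 0.24 (limma adjusted p = 0.00131). Akr1c18, another family member, was not tested, at 0 FPKM in all wild-type libraries and at most 0.193 FPKM in treated knockout. These paralogs can share reads, and the way the authors counted such reads is not given in the sources used here.

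Windows before the RefSeq starts of the 3 higher genes are shown because they differ in how alike they are. They are from RefSeq (GRCm38.p6), 5′ to 3′, end where an annotated exon begins, and lie at chr13:4279434-4279649 on the minus strand and at chr13:4190937-4191149 and chr13:4233490-4233732 on the plus strand. The first and second adjoin the annotated 5′ end of their genes. The Akr1c19 window lies inside that gene's GENCODE span, before a RefSeq start that is 5040 bases downstream of the annotated 5′ end. Capitals mark its TTCNNNGAA match, which starts 24 bases before that RefSeq start.
Akr1c12: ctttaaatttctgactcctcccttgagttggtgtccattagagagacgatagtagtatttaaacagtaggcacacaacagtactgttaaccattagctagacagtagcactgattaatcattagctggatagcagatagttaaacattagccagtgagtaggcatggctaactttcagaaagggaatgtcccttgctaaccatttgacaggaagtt
Akr1c13: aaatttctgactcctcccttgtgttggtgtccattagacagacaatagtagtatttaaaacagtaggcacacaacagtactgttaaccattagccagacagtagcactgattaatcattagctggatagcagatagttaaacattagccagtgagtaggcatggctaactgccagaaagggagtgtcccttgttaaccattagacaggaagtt
Akr1c19: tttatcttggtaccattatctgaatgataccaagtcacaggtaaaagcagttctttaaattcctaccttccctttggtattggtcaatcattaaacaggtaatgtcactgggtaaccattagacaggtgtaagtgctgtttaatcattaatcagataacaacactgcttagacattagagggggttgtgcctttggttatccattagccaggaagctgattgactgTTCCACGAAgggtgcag
In a global alignment Akr1c12 and Akr1c13 had 203 identical bases in 217 aligned columns (93.5%). Akr1c19 had 51.6% identity with Akr1c12 and 52.2% with Akr1c13. Akr1c12 and Akr1c13 hold no match to the motif in these windows, which says only that these letters are not there.

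Most other listed genes of the Akr1c family and of the NRF2 antioxidant programme did not pass. Of 25 listed genes and 21 tested, 3 were higher, all Akr1c genes, and 2 were lower, with a median of 0.08. Lower members were thus about as frequent as among all tested genes (9.35%), of which 3.37% were higher. The NRF2 target Nqo1 (0.49), the NRF2 gene Nfe2l2 itself (−0.03) and the glutathione synthesis gene Gclm (0.14) did not pass. Sulfiredoxin gene Srxn1 (−1.01) and the glutathione transferase gene Gsta4 (−0.82 ± 0.14, limma adjusted p = 0.00384) were lower.

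Besides Akr1c13 and Akr1c19, 4 genes that started below wild type ended past it. Stxbp6, which encodes a regulator of vesicle fusion (ENSMUSG00000046314, chromosome 12, 44852484 to 45074709), was at 15.5, 32.4 and 25.3 FPKM in treated knockout, 3.54, 3.26 and 2.91 FPKM in wild type and 1.16, 0.894 and 1.15 FPKM in untreated knockout. The 3 groups did not overlap, and the difference from wild type was 2.53 ± 0.21 (limma adjusted p = 7.19e-05). Cox4i2, an alternative subunit of cytochrome c oxidase, was at 17.1, 31.5 and 32.8 FPKM in treated knockout and 7.51, 6.93 and 9.41 FPKM in wild type (1.61 ± 0.24, limma adjusted p = 0.0019). The surface sialomucin gene Podxl (1.34) and the actin-related gene Actr3b (0.77) were closer to the threshold (limma adjusted p = 0.0308 and 0.0257), and each call was lost under 7 alternatives. The 3 genes that started above and ended below wild type were Hpgds, a prostaglandin D synthase (−0.98), Tmem106a (−0.81) and the oxysterol receptor Nr1h3 (−0.74). Their calls were lost under 10, 7 and 11 alternatives.

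Genes that mark aged stem cells were largely lower. Of 25 tested members of the ageing list, 17 were lower and 2 higher, beside 9.35% and 3.37% of all tested genes. The other 6 did not pass. The list median was −1.39, beside −0.12 for all tested genes. In untreated knockout the median was −1.43. By library the list level was 3.69, 3.84 and 3.86 in treated knockout and 5.08, 4.8 and 4.6 in wild type, so that the groups did not overlap. The number of lower members was 13 with the Y-linked term, 7 against wild-type replicate 2 and 14 to 17 when 1 library was left out.

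Sult1a1, a sulfotransferase gene (ENSMUSG00000030711, chromosome 7, 126672865 to 126676432), showed the largest decrease among the genes named. It was at 5.74, 11.1 and 5.18 FPKM in treated knockout, 164, 110.3 and 104 FPKM in wild type and 13.1, 15.6 and 25.5 FPKM in untreated knockout. Each treated library lay below all untreated knockout libraries, and the difference from wild type was −3.97 ± 0.29 (limma adjusted p = 3.42e-05). The lectin-like receptor gene Clec1a was at 1.07, 2.08 and 2.35 FPKM in treated knockout and 27.5, 15.3 and 12.7 FPKM in wild type (−2.74 ± 0.27, limma adjusted p = 0.000182). Scramblase family gene Plscr2 (−2.27 ± 0.28) and the retinal dehydrogenase gene Aldh1a1 (−2.12) were lower. The integrin gene Itgb3, also in the megakaryocyte list, was lower (−1.29 ± 0.16, limma adjusted p = 0.000633). Vwf (0.29, −0.30 to 0.89), Slamf1 and Mllt3 had intervals within 2-fold. The 2 higher members were the metallothionein genes Mt1 (2.03) and Mt2 (3.24), with Mt2 at 603, 39.4 and 59 FPKM in treated knockout and so highest in replicate 1.

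Other large falls lay outside the lists. Ndrg1, a stress-responsive gene, was at 14.6, 13.8 and 20.8 FPKM in treated knockout, 104, 71.8 and 85.1 FPKM in wild type and 51.7, 42.5 and 32.5 FPKM in untreated knockout, below both other groups. Multimerin gene Mmrn1, which encodes a carrier of platelet factor V, was at 10.6, 19.6 and 15.1 FPKM against 89.7, 77.7 and 67.9 FPKM in wild type. The lipoprotein receptor gene Vldlr differed by −2.81 ± 0.45 (limma adjusted p = 0.00269), with wild-type replicate 1 far above the others at 52.4 FPKM. Tnfsf13os was at 11.9, 7.1 and 13.8 FPKM in treated knockout and 52.7, 60.1 and 55.3 FPKM in wild type (−2.30 ± 0.21). It is antisense to Tnfsf13 (−1.21), and without strand the reads of the pair cannot be told apart.

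Quiescence and immediate early genes were lower on median, with wide spread. Of 25 tested quiescence genes, 4 were lower and 1 higher, beside 9.35% and 3.37% of all tested genes. The list median was −0.63, beside −0.12 for all tested genes. The list level was 2.92, 3.68 and 3.34 in treated knockout and 4.49, 4.32 and 3.58 in wild type, so wild-type replicate 3 lay inside the treated range. Lower members numbered 8 without treated replicate 2 or wild-type replicate 3, 1 without treated replicate 1 or 3, 2 without wild-type replicate 1 or 2, 1 with the Y-linked term and 0 against wild-type replicate 2. Ndn, an imprinted gene that restrains stem cell proliferation, was at 6.66, 17.3 and 9.82 FPKM in treated knockout and 46.9, 39.1 and 64.7 FPKM in wild type, with untreated knockout at 9.02, 6.2 and 8 FPKM. It was lower (−2.13 ± 0.28, limma adjusted p = 0.000889). Cdkn1c, the p57 cell cycle inhibitor gene, was at 6.32, 17.2 and 10.4 FPKM against 31.7, 21.1 and 21.5 FPKM (−1.14 ± 0.28, limma adjusted p = 0.022).

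Of 18 immediate early genes, 4 were lower and 0 higher, beside 9.35% and 3.37% of all tested genes. The list median was −1.51, beside −0.12 for all tested genes, and all but 1 member were negative. The list level by library was 6.58, 5.99 and 4.35 in wild type and 3.58, 4.73 and 4.17 in treated knockout. Wild-type replicate 3 lay inside the treated range, so the groups overlapped. The nuclear receptor gene Nr4a1 was at 34.1, 13.1 and 2.21 FPKM in wild type and 0.846, 1.85 and 1.84 FPKM in treated knockout (−2.24 ± 0.65, limma adjusted p = 0.0413), and 12 of the 17 alternatives that tested the gene lost this call. Fos (−2.75) and Egr1 (−2.98) had larger differences but did not pass. When 1 library was left out, 1 to 11 members of this list were lower, with 11 without wild-type replicate 3 and 8 without treated replicate 2. There was 1 with the Y-linked term and 0 against wild-type replicate 2.

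Cell cycle genes lay above wild type. Of 50 members, all tested, 20 were higher and 0 lower, beside 3.37% and 9.35% of all tested genes. The other 30 did not pass. The list median was 0.55, beside −0.12 for all tested genes. Of the 20, 19 had started above wild type in untreated knockout. The list level by library was 6.03, 5.9 and 5.9 in treated knockout, 5.26, 5.2 and 5.6 in wild type and 6.58, 6.74 and 6.21 in untreated knockout. Treated knockout lay between the other groups without overlap. The count of higher members was 7 with the Y-linked term, 5 against wild-type replicate 2 and 15 to 22 when 1 library was left out.

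Cenpa, the centromeric histone gene (ENSMUSG00000029177, chromosome 5, 30666777 to 30674830), was at 315, 222 and 208 FPKM in treated knockout, 54.9, 84.1 and 83.6 FPKM in wild type and 233, 297 and 227 FPKM in untreated knockout. It was higher than wild type by 1.73 ± 0.20 (limma adjusted p = 0.000485). The mitotic cyclin genes Ccnb1 (1.44 ± 0.21) and Ccnb2 (1.22 ± 0.17) and the mitotic kinase gene Plk1 (1.25 ± 0.17) were higher too (limma adjusted p = 0.00185, 0.00119 and 0.00127). The replication genes Mcm2 (−0.04), Mcm5 (0.12) and Pcna (0.04) did not pass. The proliferation marker Mki67 was at 12.4, 6.38 and 7.49 FPKM against 3.92, 5.75 and 9.38 FPKM, and its difference of 0.43 ± 0.29 did not pass (limma adjusted p = 0.341). Ribonucleotide reductase gene Rrm2 missed the threshold (0.73 ± 0.23, limma adjusted p = 0.0537). Markers of erythroid and lymphoid cells were higher in the same libraries, and their part in the cell cycle counts was not tested.

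**Figure D3:**
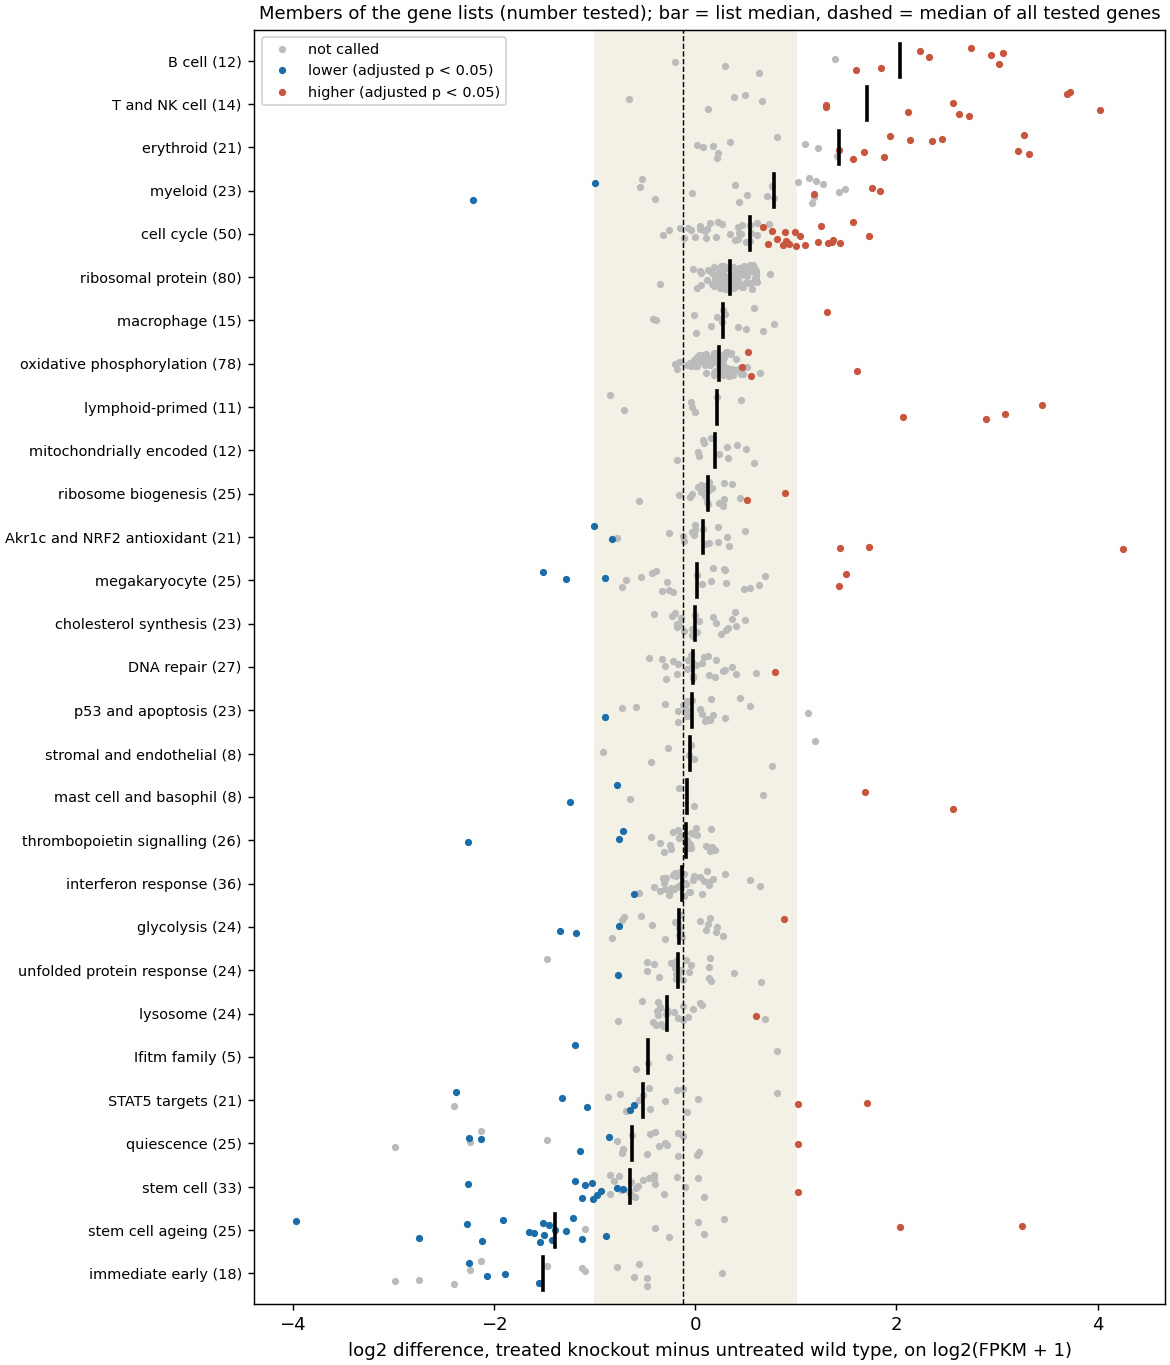
Log2 difference of treated knockout minus untreated wild type on log2(FPKM + 1) for each tested member of 29 gene lists, with the number tested in brackets, bars at list medians, a dashed line at the median of all tested genes and shading within 2-fold. B cell, T and NK cell and erythroid markers have the highest medians (2.04, 1.71 and 1.43), and ageing and immediate early genes the lowest (−1.39 and −1.51).

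Erythroid markers were above wild type. Of 21 tested, 11 were higher and 0 lower, beside 3.37% and 9.35% of all tested genes. All 21 differences were positive, and the median was 1.43, beside −0.12 for all tested genes. By library the list level was 7.05, 5.52 and 5.88 in treated knockout and 4.41, 5.01 and 4.63 in wild type. Treated replicate 1 was highest and lay inside the untreated knockout range (6.99, 6.75 and 7.92). Car1, a carbonic anhydrase gene of early red cell precursors, was at 5804, 600.4 and 797 FPKM in treated knockout, 110.0, 160.2 and 156 FPKM in wild type and 2309, 1994 and 2023 FPKM in untreated knockout (3.32 ± 0.70, limma adjusted p = 0.0112). The membrane proteins' genes Tspo2 (3.27) and Ermap (3.21) and the transferrin receptor gene Tfrc (1.94) were higher. So were Epor, the erythropoietin receptor gene (1.68 ± 0.26, limma adjusted p = 0.00261), and the erythroid factor gene Klf1 (2.35). Globin genes did not pass, with Hba-a1 at 0.08 and Hbb-bs at 0.01, although the near-identical globin copies can share reads. With the Y-linked term 4 erythroid members were higher. Against wild-type replicate 2 alone the log2 differences of Car1, Tspo2, Ermap, Tfrc and Epor were 3.13, 3.08, 2.80, 1.88 and 1.56. With 1 wild-type library in that setting, these sizes do not show that a call was kept.

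B cell markers lay above wild type and, by list median, below untreated knockout. Of 12 tested of 20, 8 were higher and 0 lower, beside 3.37% and 9.35% of all tested genes. The list median was 2.04 where untreated knockout had 5.74. The list level was 3.23, 5.4 and 4.18 in treated knockout and 2.39, 2.45 and 2.5 in wild type, with treated replicate 2 highest. Cd79a, a signalling chain of the B cell receptor, was at 15.9, 122 and 52.9 FPKM in treated knockout, 4.43, 4.97 and 5.45 FPKM in wild type and 406, 959.9 and 1010.5 FPKM in untreated knockout (3.02 ± 0.55, limma adjusted p = 0.00525). Surrogate light chain genes Igll1 (2.94) and Vpreb3 (2.74) and the plasma cell chaperone gene Mzb1 (3.06) were higher. Ebf1, a B lineage transcription factor, did not pass (1.39 ± 0.43, limma adjusted p = 0.0511). The immunoglobulin joining chain gene Jchain was at 61.7, 169 and 1434 FPKM in treated knockout and 12.6, 1.02 and 0.591 FPKM in wild type. In untreated knockout Jchain was at 164, 341 and 1.8 FPKM. Igkc was at 1223, 1953 and 24770.0 FPKM in treated knockout and 128, 33.1 and 14.6 FPKM in wild type. In untreated knockout Igkc was at 4556, 7737 and 5823 FPKM. Treated replicate 3 stood apart for both genes and lay above every untreated knockout library. By mean FPKM, both genes were higher in treated than in untreated knockout, at 555 against 169 FPKM and 9315.5 against 6039 FPKM. For Igkc, treated replicates 1 and 2 lay below every untreated knockout library. Its log2 difference from wild type was 6.57 in treated and 7.17 in untreated knockout, the reverse order. For Jchain these differences were 6.14 and 3.94. Of the list's members 3 to 9 were higher when 1 library was left out, and 3 with the Y-linked term. Against wild-type replicate 2 alone the log2 differences of Cd79a, Igll1, Vpreb3, Mzb1 and Ebf1 were 3.01, 3.27, 3.01, 3.09 and 1.56. Here too the sizes rest on 1 wild-type library and do not show that a call was kept.

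T and NK cell markers were higher in 9 of 14 tested cases and lower in 0, with a median of 1.71. Among all tested genes 3.37% were higher and 9.35% lower. Their list level was 2.59, 4.11 and 3.79 in treated knockout and 1.7, 1.72 and 1.7 in wild type. Trbc1, a constant segment of the T cell receptor, was at 9.93, 26.1 and 24.3 FPKM in treated knockout, 0.277, 0.934 and 0.403 FPKM in wild type and 24, 38.1 and 75.2 FPKM in untreated knockout (3.69 ± 0.40, limma adjusted p = 0.000322). Its paralog Trbc2 was also higher (3.73 ± 0.56), and both calls were kept in all 18 alternatives. The CD3 chain gene Cd3g (4.02) and the interleukin receptor gene Il2rb (2.57) moved the same way. Among 11 lymphoid-primed markers 4 were higher, namely Ly6d (3.44), the DNA polymerase gene Dntt (3.08), Cd48 (2.89 ± 0.28) and Cd52 (2.06). Cd48, absent from the surface of the purest stem cells, was at 94.5, 119 and 195 FPKM in treated knockout and 17.6, 12.6 and 20.8 FPKM in wild type. With the Y-linked term 5 T and NK and 3 lymphoid-primed members were higher. Against wild-type replicate 2 alone the log2 differences of Trbc1, Trbc2, Cd3g and Il2rb were 3.34, 4.06, 4.16 and 2.59. Those of Ly6d, Dntt, Cd48 and Cd52 were 3.23, 3.32, 3.27 and 1.68. Sizes from 1 wild-type library do not by themselves show that a call was kept.

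By median, myeloid and macrophage markers lay closer to wild type than B cell, T and NK cell and erythroid markers. Of 23 tested myeloid genes, 3 were higher and 2 lower, beside 3.37% and 9.35% of all tested genes. The myeloid median was 0.78, with 17 differences positive and 6 negative, and ranged from 0.47 to 1.55 across the alternatives. Only 2 had an interval within 2-fold, and 14 were undecided after starting above. Higher members numbered 5 with the Y-linked term and 1 to 3 with 1 library left out. Csf3r, the receptor of granulocyte colony-stimulating factor, was at 4.93, 10.9 and 10.2 FPKM in treated knockout, 51.9, 25.7 and 53.3 FPKM in wild type and 28.8, 24 and 25.2 FPKM in untreated knockout. It was lower than wild type (−2.20 ± 0.29, limma adjusted p = 0.000903) and below every library of both other groups. Granule protease gene Prtn3 was lower (−0.99) and the surface protein gene Ly86 (1.76), the monocyte gene Ly6c2 (1.83) and the factor gene Irf8 (1.18) were higher. Mpo, the neutrophil peroxidase gene, did not pass (0.76 ± 0.49, limma adjusted p = 0.321).

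All 15 tested macrophage genes had started above wild type, and in treated knockout 7 were within 2-fold of it, 7 undecided and 1 higher. Among all tested genes 6.81% started above and 3.37% were higher. C1qb, a complement subunit gene, was at 15.7, 32.9 and 24 FPKM in treated knockout, 13.3, 17.2 and 18 FPKM in wild type and 469, 744 and 236 FPKM in untreated knockout. The adhesion gene Vcam1 was at 4.04, 9.99 and 7.59 FPKM in treated knockout and 3.15, 5.03 and 4.63 FPKM in wild type, and its difference of 0.59 ± 0.36 did not pass (limma adjusted p = 0.293). The iron exporter gene Slc40a1 was the higher one (1.31 ± 0.33, limma adjusted p = 0.0244), and 7 alternatives lost this call. Of 8 tested stromal and endothelial genes, 0 passed in limma in either direction, and 1 was lower at an unadjusted p under 0.05.

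Megakaryocyte genes held both directions. Of 25 tested, 2 were higher and 3 lower, beside 3.37% and 9.35% of all tested genes, with a median of 0.01. The platelet chemokine gene Ppbp (1.5) and the factor gene Gata1 (1.43), which is also an erythroid gene, were higher. Selp, the platelet P-selectin gene, was lower (−1.51 ± 0.43, limma adjusted p = 0.0391), which 10 alternatives did not keep, and so were Itgb3 and the factor gene Nfe2 (−0.90). Pf4 (0.69 ± 0.55) and Itga2b (−0.69 ± 0.29) did not pass (limma adjusted p = 0.427 and 0.133). Of 8 mast cell and basophil genes 2 were higher and 2 lower. Il4, a cytokine gene of that list, was at 20.6, 37.7 and 26.9 FPKM in treated knockout, 21.4, 35 and 39.3 FPKM in wild type and 2.39, 1.87 and 1.91 FPKM in untreated knockout, with an interval within 2-fold (−0.69 to 0.37).

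**Figure D4:**
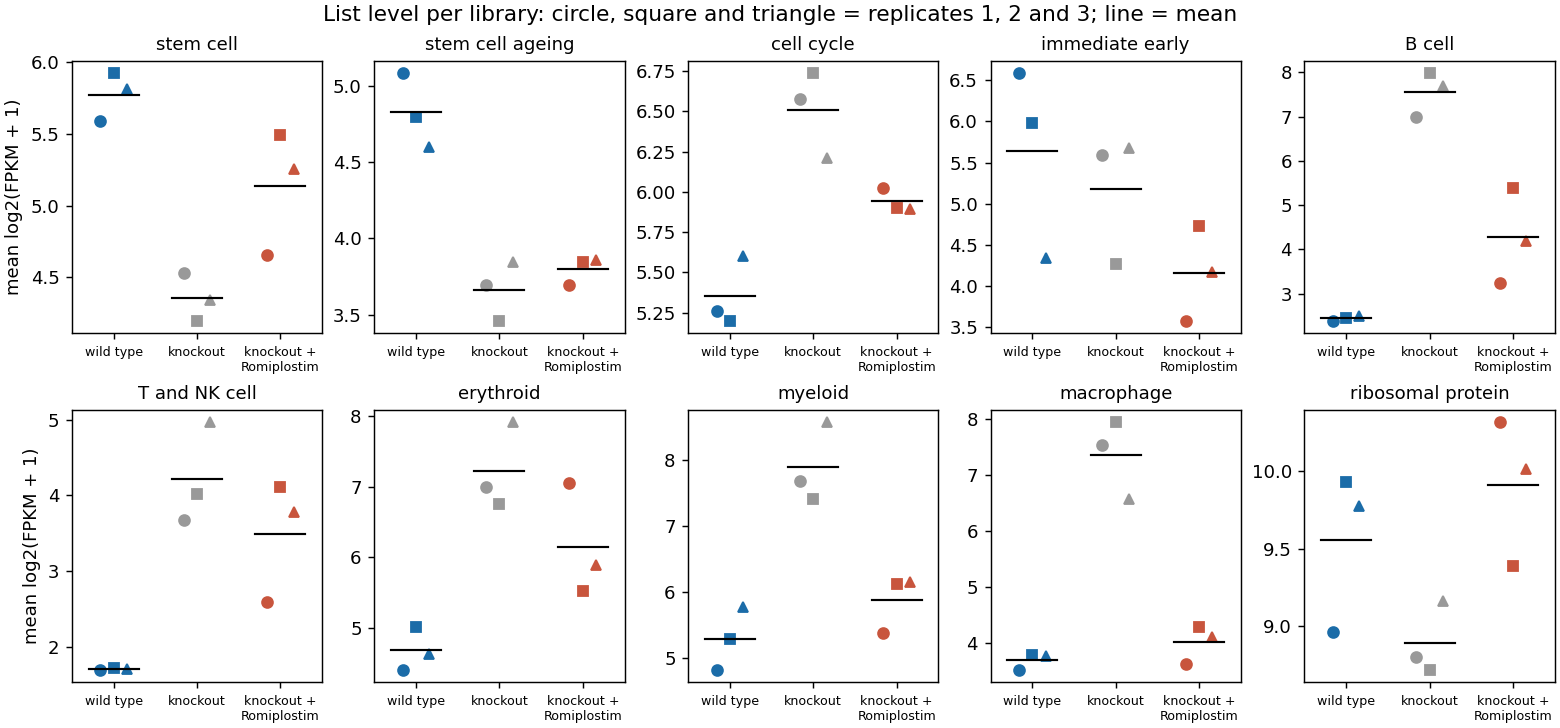
Mean log2(FPKM + 1) of the tested members of 10 gene lists in each library of untreated wild type, untreated knockout and treated knockout, with circle, square and triangle for replicates 1, 2 and 3 and a line at the mean. Treated replicate 1 has the lowest stem cell level (4.66) and the highest erythroid level (7.05), and treated replicate 2 the highest B cell level (5.40).

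Of 78 oxidative phosphorylation genes, 75 had an interval within 2-fold, with a list median of 0.24. Of these 78, 4 were higher and 0 lower, beside 3.37% and 9.35% of all tested genes. At an unadjusted p under 0.05, 14 were higher. The count of higher members was 24 without treated replicate 2 and 1 or 2 without treated replicate 1 or any 1 wild-type library. It was 9 with median-of-ratios scaling, 1 with the Y-linked term and 1 against wild-type replicate 2. Besides Cox4i2 the higher genes were Uqcrfs1 (0.53), the ATP synthase gene Atp5b (0.56) and the cytochrome gene Cyc1 (0.46). Of 12 tested mitochondrially encoded genes, 0 passed in limma and 0 had an unadjusted p under 0.05. Of these, 5 had an interval within 2-fold, and the median of 0.20 ranged from −0.43 to 0.59 across the alternatives. Of 24 glycolysis genes, 16 had an interval within 2-fold, 3 were lower and 1 higher. Both counts are near the shares of all tested genes (9.35% and 3.37%). The lower ones included the lactate dehydrogenase gene Ldhb at −1.34 ± 0.31 and the hexokinase gene Hk2 at −1.19 ± 0.18 (limma adjusted p = 0.0157 and 0.00197). The monocarboxylate transporter gene Slc16a1 was higher (0.88). Lower glycolysis members numbered 8 without treated replicate 2, 1 with the Y-linked term and 0 against wild-type replicate 2, and the last 2 settings had 0 higher. Of 23 cholesterol synthesis genes, 0 passed and all 23 had intervals within 2-fold, while 2 were higher at an unadjusted p under 0.05 in limma and 4 passed with median-of-ratios scaling.

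Ribosomal protein genes had a median of 0.35, and 0 of 80 passed in limma while 42 had an interval within 2-fold. At an unadjusted p under 0.05, 6 were higher and 0 lower, and without treated replicate 2 the adjusted count was 6 higher. Across the alternatives this median ranged from −0.01 to 0.64, so its sign depends on the setting. The nucleolar genes Npm1 (0.89 ± 0.17) and Ncl (0.51) were the 2 higher genes of 25 for ribosome biogenesis, where there were 4 without treated replicate 2, 1 without any other library and 0 with the Y-linked term. Among 36 interferon response genes 33 were within 2-fold and 1 was lower, the guanylate-binding protein gene Gbp2 (−0.61). Of 5 tested Ifitm genes, 1 was lower, Ifitm7 (−1.20 ± 0.18, limma adjusted p = 0.00182), at 0.701, 1.09 and 0.833 FPKM in treated knockout and 2.29, 3.91 and 3.85 FPKM in wild type. Among all tested genes 3.37% were higher and 9.35% lower. Single members were called among 27 DNA repair genes (Fancd2 higher, 0.80), 23 p53 and apoptosis genes (Bcl2 lower, −0.90), 24 unfolded protein response genes (Dnajb9 lower, −0.77) and 24 lysosome genes (Gla higher, 0.61). With the Y-linked term none of these 4 lists and none of the interferon list had a called member, and without treated replicate 2 there were 7 lower lysosome members.

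Of 92 named genes that passed, 22 were called in every alternative that tested them, 11 higher and 11 lower, and 45 passed with the Y-linked term. For 20 of the 22 this was all 18 alternatives, and for Tnfsf13 and Ifitm7 it was 17, since a filter at 5 FPKM leaves them out. The lower ones included Sult1a1, Clec1a, Ndrg1, Mmrn1, Tnfsf13os, Tnfsf13, Plscr2, Itgb3, Csf3r and Ifitm7. The 11 higher ones were Akr1c12, Akr1c19, Stxbp6, Cox4i2, Id1, Trbc1, Trbc2, Cd48, Cenpa, Ccnb2 and Plk1.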

How the data were processed

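The authors deposited an FPKM value for each gene and library. The submitters' processing notes name mm10, TopHat2 and Cufflinks 2.2.1 without their roles, and the annotation and filters are not given in the sources used here. Per the labels' protocols, the sorted cells went directly to TRIzol, and the low-input cDNA kit keeps no strand. Identifiers were joined to GENCODE M21, where 34490 of 35275 matched.

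Values were converted to log2(FPKM + 1), and genes that reached 1 FPKM in 3 or more of the 6 libraries were kept. In limma 3.58.1 under R 4.3.3, a model of group means covered the 12 libraries of the series, which then share 1 estimate of the spread with an intensity trend. An exact test of 3 against 3 libraries cannot go below a p of 0.1. The fit was tested on simulated data. Depth was recovered from the steps of low values, of which 48.5% to 53.3% per library were whole within 0.05 fragments, so it is an estimate. Intervals cover the spread between libraries, and the floor of 3 fragments covers counting error only.

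Named genes were Thpo, the 10 largest rises and falls among genes that passed with a mean of at least 5 FPKM and no overlap, at most 4 members per list and a fixed panel. Some genes that this rule names are not reported here. Genes past wild type, Tnfsf13, Igkc and further list members were chosen after their values were seen. Unnamed gene models, pseudogenes and receptor segments were not named by size. The members, the 30 lists and the tests were chosen with earlier results of these data known. Of the 18 alternatives, 16 changed pseudocount, filter, scaling, libraries, trend, weights and the replicate block. The other 2, a Y-linked term and the comparison with wild-type replicate 2, were added after seeing the data.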

Additional observations from a re-analysis of the deposited data

How the results depend on the processing

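The number of genes that passed (1520) was 887 with a filter at 5 FPKM, 427 with only the 6 libraries in the fit, 3046 with array weights, 305 with the Y-linked term and 138 against wild-type replicate 2, and ranged from 827 to 2975 when 1 library was left out. In the same order the higher genes (403) numbered 252, 149, 655, 78 and 38, with 668 under median-of-ratios scaling, 661 under quantile normalization and 226 to 587 with 1 library left out. The lower genes (1117) numbered 635, 278, 2391, 227 and 100, and 506 to 2388. Intervals within 2-fold (9528) numbered 21367 without a filter on low values, which tests 24550 genes, and 8669 to 10101 with 1 library left out. For genes that started below, those short of wild type (502) numbered 323 with the filter at 5, 332 without a filter, 193 with 6 libraries, 166 with the Y-linked term, 74 against replicate 2 and 307 to 673 with 1 library left out. Those within 2-fold (256) numbered 142 against replicate 2 and 163 to 450 with 1 library left out. Undecided ones (198) numbered 580 and 341 with pseudocounts of 0.1 and 0.5, 387 without a filter, 540 with 6 libraries, 34 with array weights, 574 with the Y-linked term, 743 against replicate 2 and 117 to 400 with 1 library left out. Those past it (6) numbered 11 with array weights, 3 against replicate 2 and 3 to 9 with 1 library left out. For genes that started above, those still above wild type (260) numbered 164 with the filter at 5, 165 without a filter, 121 with 6 libraries, 61 with the Y-linked term, 26 against replicate 2 and 155 to 272 with 1 library left out. Those within 2-fold (290) numbered 175 with the filter at 5, 535 without a filter, 144 against replicate 2 and 219 to 310 with 1 library left out. Undecided ones (260) numbered 151 with the filter at 5, 721 without a filter, 405 with 6 libraries, 114 with array weights, 547 with the Y-linked term, 643 against replicate 2 and 265 to 406 with 1 library left out. Those past it (3) numbered 5 with a pseudocount of 0.1 and with the replicate block, 10 with array weights, 1 with either filter change, either scaling and 6 libraries, 0 with the Y-linked term or against replicate 2, and 0 to 18 with 1 library left out. The filter at 5 FPKM tests 8820 genes, and the cause of the other moves was not tested. Libraries with the same number deviated with correlations of −0.13, −0.19 and 0.15, so the numbers do not pair them. With the replicate block 1479 genes passed, 1333 of them shared with the fit without it. No named gene that passed changed direction, while 326 values of named genes no longer passed and 19 newly passed. Of named genes that did not pass, 8 had the other sign under some alternative, in 17 values. Against replicate 2 these were Slamf1 (−0.0764), Vwf (−0.15), Pf4 (−0.55), Rpl3 (−0.13), Rps3 (−0.12) and Xist (−0.58). With the Y-linked term they were Slamf1 (−0.0465) and Xist (−0.29), and with quantile normalization Actb (−0.19). With 1 library left out Slamf1 ranged from −0.21 to 0.33, Pf4 from −0.0082 to 1.31, Il4 from −0.41 to 0.0416, Rps3 from −0.0083 to 0.51 and Actb from −0.0614 to 0.33. At 3 libraries a group the comparison leaves 1264 genes that can be placed neither as changed nor as within 2-fold.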
